A study of Canis lupus familiaris with 11 samples.

Results

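The genes described here are the expressed ZNF genes of dog kidney epithelial cells, a large family whose names record that their proteins carry zinc fingers. They were selected on their mean level over all libraries: protein-coding genes with a symbol of ZNF followed by a number and a mean of at least 5 counts per 1e6 counts of the library (CPM). This took 149 of the 275 protein-coding ZNF genes, out of 26178 genes in the table. Of the 126 that fell below the threshold, 24 had 0 reads in every library. Just inside stood ZNF514 at 5.02 CPM and ZNF653 at 5.05 CPM, and just outside stood ZNF606 at 4.89 CPM and ZNF746 at 4.72 CPM. The mean levels chose the members and are given only as a description, whereas differences between groups played no part in the rule.

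RNA was sequenced from MDCKII cells, an epithelial line from dog kidney that grows as a confluent, polarised sheet. The 4 groups were cells lacking LMNA that were compressed (KO compressed, 3 libraries), the same knockout line left uncompressed (KO control, 2 libraries), wild-type cells that were compressed (WT compressed, 3 libraries) and uncompressed wild-type cells (WT control, 3 libraries). All were cultured for 3 to 4 d, and the compressed cells had lateral compression and then 2 h to recover. These groups follow the sample labels, whereas the design text of the series gives other times and mentions reseeding and wild-type cells alone. LMNA encodes lamins A and C, the filament proteins under the nuclear envelope, and the series asks what part lamin A has in the answer of an epithelium to compression. The labels do not say whether the knockout line is 1 clone and name no sham handling of the controls. They also do not say that replicates were separate cultures. The p-values therefore set a difference between groups against the scatter of these samples, and part of that scatter may be technical.

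Most ZNF proteins are sequence-specific DNA-binding factors with arrays of C2H2 fingers, each finger reading a short stretch of bases. Many also carry a KRAB box, which recruits the corepressor TRIM28 and through it the histone methyltransferase SETDB1, and this machinery silences transposable elements and imprinted loci. KRAB genes arose by repeated tandem duplication and lie in clusters, and their mutual similarity makes short reads harder to assign. A minority of ZNF proteins work outside transcription, on ribosomes, splicing or signalling.

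The libraries held 10420214 to 17999623 counts. LMNA stood at 24.5 to 53.0 CPM in libraries labelled KO and at 678 to 1250 CPM in those labelled WT. Of 8 epithelial markers listed, the 5 named in the table summed to 1001 to 1307 CPM in every library. Of the other 3, CDH1, KRT8 and KRT18, none was found under its symbol. Endothelial markers summed to less than 0.87 CPM (0.0556 to 0.865), immune markers to 1.99 to 5.65 CPM, and fibroblast and smooth muscle markers to 14.5 to 28.3 CPM. On the first principal component of all genes, which held 37.9% of the variance, WT compressed replicate 3 and KO compressed replicate 2 stood apart at 71.2 and 82.7, against -53.8 to 19.9 in the other 9 libraries.

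The 149 members spread over 32 chromosomes of the CanFam3.1 build, with 29 on chromosome 1 and 21 on chromosome 6. By the protein domains in the deposited gene descriptions, 37 members had a KRAB box alone, 9 had a KRAB box and a SCAN domain, 5 had a SCAN domain alone, 2 had a BTB domain and 96 had none of these. For 140 members the protein match in the table carried the same symbol. The other 9 matched another protein, for example ZNF358 matching TEX45 and ZNF238 matching ZBTB18, so their identity is less certain. All 149 passed the filter on low counts, and the lowest count of a member in any library was 17.

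ZNF genes were expressed at low to moderate levels, and a few short, widely expressed genes led. Per kilobase of gene and per 1e6 reads (FPKM), the median member averaged 5.87 over all libraries, and 40 of 149 averaged 10 or more. ZNF706, which encodes a small single-finger protein, was first at 140 FPKM. ZNF146, a protein made almost only of fingers, followed at 103 FPKM. Next came ZNF664 at 76.6 FPKM and ZNF326 at 58.4 FPKM. ZNF326 is a subunit of the complex that links RNA polymerase II elongation to splicing. ZNF639 averaged 46.9 FPKM and ZNF740 30.1 FPKM. In reads, which depend also on gene length, ZNF326, ZNF740, ZNF638, ZNF7, ZNF146 and ZNF598 led with 107 to 73.7 CPM. ZNF7 was the only gene with a KRAB box in either of these lists of 6.

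Variation between libraries was modest for most members. The coefficient of variation over the 11 libraries had a median of 24.7%, and the lowest was 10.5% for ZNF197, whose protein match carries another symbol. ZNF865 had the highest at 54.1%. Within groups, the median SD of log2 CPM was 0.315 over members and 0.261 over the other protein-coding genes at 5 CPM or more.

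The ZNF genes together took a slightly smaller share of the counts in compressed cells of both genotypes. Their CPM summed to 3106, 3583 and 3606 in KO compressed cells, against 3684 and 3780 in KO control cells. The sums were 3576, 3745 and 3586 in WT compressed cells, against 3836, 3818 and 3815 in WT control cells. The sums of compressed and control cells did not overlap in either genotype, but they did in both once the libraries were scaled by TMM, at 3211 to 3729 in KO compressed and 3570 to 3696 in KO control cells, and at 3585 to 3772 in WT compressed and 3691 to 3842 in WT control cells. In means, WT compressed cells had 3636 ± 95.0 CPM and WT control cells 3823 ± 11.4 CPM (SD, n = 3 each), a ratio of 0.951, which is 1.03 when FPKM are summed instead. The direction of the summed level in WT cells thus depends on the scale. KO compressed replicate 1, which had the lowest sum, also held the lowest value of the 11 libraries for 23.5% of members and for 15.2% of all genes tested. In bulk RNA, fewer cells with a transcript and less of it per cell cannot be told apart.

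**Figure D1:**
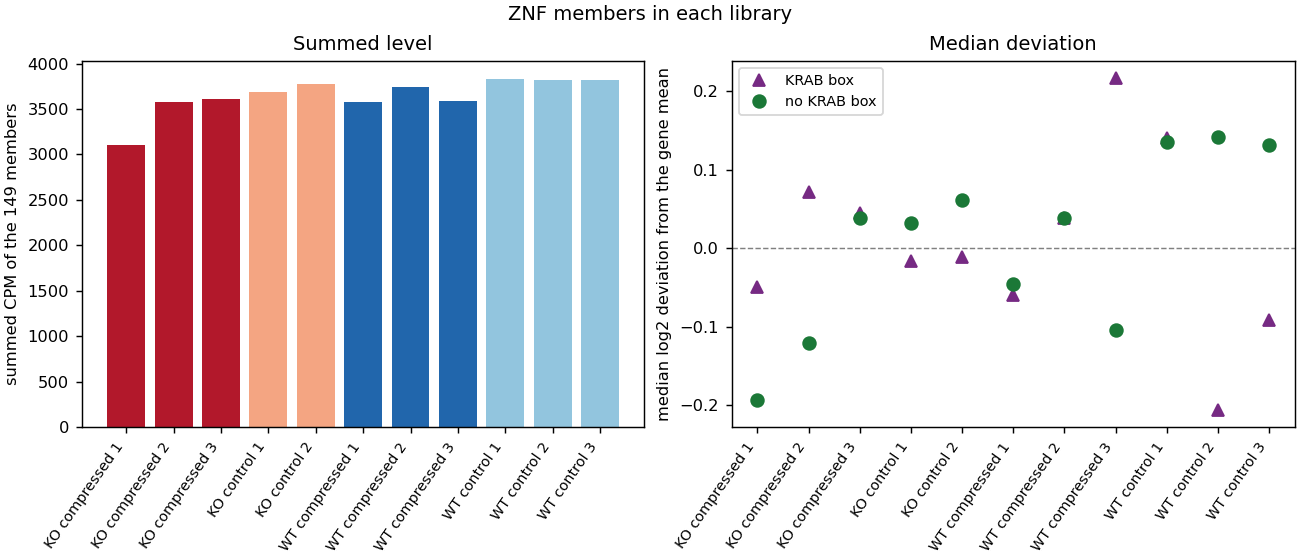
Summed CPM of the 149 ZNF genes in each library (left) and the median log2 deviation from each gene's mean over libraries for members with and without a KRAB box (right). Compressed libraries sum to 3106 to 3745 CPM and control libraries to 3684 to 3836 CPM, and KO compressed replicate 1 is the lowest bar.

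Compression of WT cells changed 6 ZNF genes at an adjusted p of 0.05, from edgeR's quasi-likelihood F test and the Benjamini-Hochberg procedure over 13560 genes. ZNF558 rose, and ZNF335, ZNF598, ZNF500, ZNF74 and ZNF517 fell. Of all genes tested 6.25% were called, 3.85% as higher and 2.4% as lower, and 6 of 149 members is near that share. At an unadjusted p under 0.05 there were 17 members higher and 27 lower, together 29.5% of members against 31.8% of all genes. Values of WT compressed and WT control libraries did not overlap for 29 members that were higher and 40 that were lower, beside 19.9% and 21.4% of all genes. The median log2 fold change over members was -0.10 and over all genes tested -0.02, and 67 of 149 members were positive.

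ZNF335, on chromosome 24 from 33222386 to 33247007, is a factor that works with histone H3 lysine methyltransferase complexes and is needed for neural progenitor growth in mouse and human. It had 16.3, 20.7 and 10.7 CPM in WT compressed cells, against 36.3, 30.5 and 30.6 CPM in WT control cells, a log2 fold change of -0.996 ± 0.25 (SE; edgeR adjusted p 0.0435). Every compressed library lay well below every control library. In KO cells the values were 22.2, 13.3 and 17.8 CPM with compression and 23.5 and 19.3 CPM without, so that these overlapped, and all 5 KO libraries lay below the WT controls.

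ZNF598, on chromosome 6 from 38928806 to 38939169, encodes a ubiquitin ligase that senses collided ribosomes. Its values were 52.0, 71.1 and 43.9 CPM in WT compressed cells, against 92.9, 126 and 107 CPM in WT control cells, a log2 fold change of -0.92 ± 0.24 (SE; edgeR adjusted p 0.0448). KO compressed cells had 67.8, 34.0 and 59.3 CPM, against 73.7 and 82.3 CPM in KO control cells. Compressed libraries were lower without overlap in both genotypes, but the KO difference of -0.46 ± 0.26 did not pass the test (edgeR adjusted p 0.773).

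ZNF500, on chromosome 6 from 36655169 to 36662068, is a SCAN zinc finger gene. It had 8.74, 9.57 and 8.64 CPM in WT compressed cells, against 16.2, 20.3 and 19.9 CPM in WT control cells, a log2 fold change of -1.02 ± 0.27 (SE; edgeR adjusted p 0.0456). The WT compressed values were close together and well below those of the controls. KO compressed cells had 9.53, 4.72 and 10.8 CPM and KO control cells 13.6 and 14.2 CPM, a difference of -0.65 ± 0.29 that did not pass (edgeR adjusted p 0.773).

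ZNF74, on chromosome 26 from 30203787 to 30215776, was the called gene with the fewest reads. It fell to 5.52, 5.17 and 4.03 CPM in WT compressed cells, against 9.12, 9.85 and 8.87 CPM in WT control cells, a log2 fold change of -0.87 ± 0.23 (SE; edgeR adjusted p 0.0471). ZNF517, on chromosome 13 from 38086013 to 38092928, had 37.1, 42.5 and 23.2 CPM in WT compressed cells, against 55.3, 64.5 and 60.6 CPM in WT control cells, with -0.77 ± 0.21 (SE; edgeR adjusted p 0.0482). For both genes the KO libraries were also separate and lower with compression, with -0.34 ± 0.26 for ZNF74 and -0.39 ± 0.23 for ZNF517, neither of which passed (edgeR adjusted p 0.787 and 0.773).

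ZNF558, on chromosome 20 from 51897299 to 51918650, was the single member that rose. It encodes a KRAB protein known in human cells as a repressor of the mitochondrial quality gene SPATA18. Its values were 24.9, 20.4 and 21.8 CPM in WT compressed cells, against 12.5, 14.8 and 12.9 CPM in WT control cells, a log2 fold change of 0.79 ± 0.22 (SE; edgeR adjusted p 0.0484). KO compressed cells had 15.3, 24.7 and 24.4 CPM and KO control cells 20.9 and 22.2 CPM. The KO control level was thus near that of WT compressed cells, and the difference of KO control from WT control, 0.68 ± 0.24, did not pass (edgeR adjusted p 0.467).

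**Figure D2:**
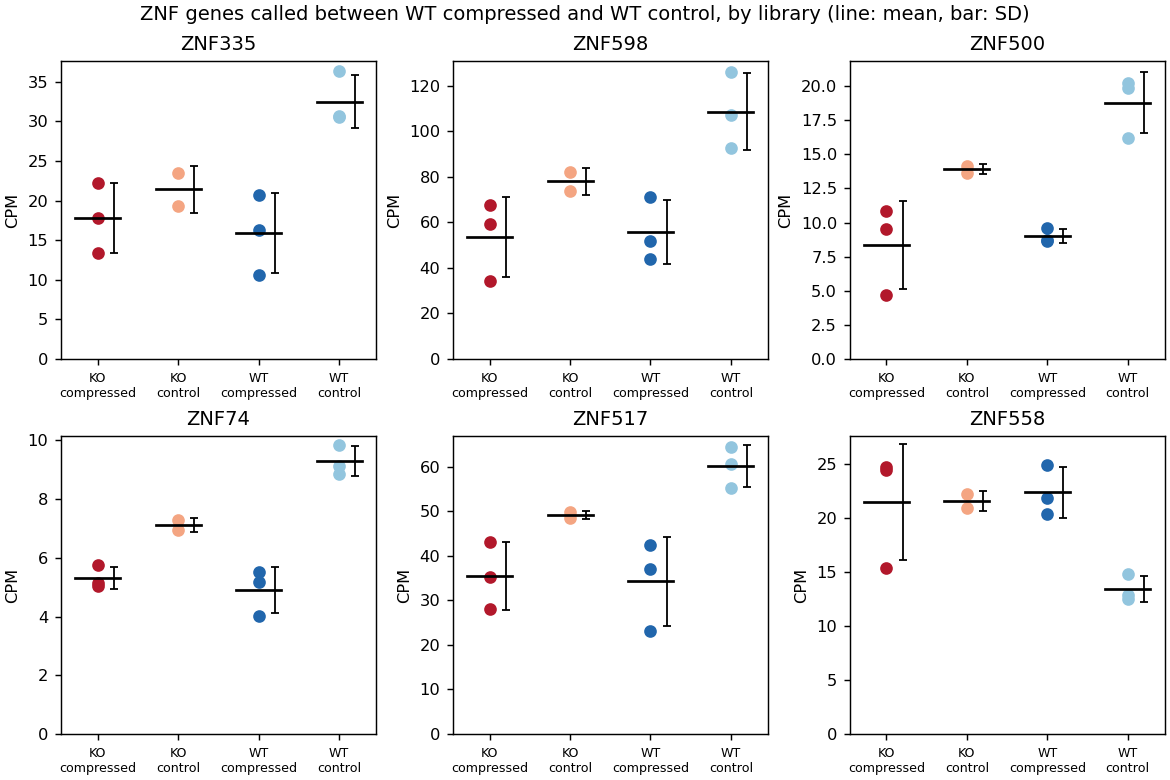
CPM of the 6 ZNF genes called between WT compressed and WT control cells, one point per library, with the group mean (line) and SD (bar). ZNF335, ZNF598, ZNF500, ZNF74 and ZNF517 are lower and ZNF558 is higher in all 3 WT compressed libraries than in all 3 WT controls.

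All 6 calls lay close to the threshold, with adjusted p-values of 0.0435 to 0.0484. WT compressed and WT control libraries did not overlap for these genes, so leaving out 1 library could hardly reverse a direction. Each gene kept its direction in all 11 such fits, and each was called in 2 to 4 of them. At most 1 of all genes tested was called without WT control replicate 2 or 3. The same held without any one of WT compressed replicates 1, 2 and 3. The number of members called fell to 0 in all these fits. It was also 0 without KO control replicate 1 and without KO control replicate 2, beside 0% of all genes, although neither is a WT library. It was 5 without KO compressed replicate 3, where 6.78% of all genes were called. It was 9 without WT control replicate 1, where 10.2% of all genes were called, 11 without KO compressed replicate 1, where 9.09% were, and 32 without KO compressed replicate 2, where 22.7% were. DESeq2 called 25, 10 higher and 15 lower, which is 16.8% of members beside 18.9% of all genes. In the fits that called 9, 11, 32 and 25 members, the members' share lay below that of all genes.

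Members with well-known roles leaned both ways. Of 47 ZNF genes on a list of studied roles, 33 were members, and in WT cells 2 fell (ZNF335 and ZNF598), none rose and 18 of 33 were positive. The share called, 6.06%, is near the 6.25% of all genes. Among those with a part in RNA metabolism or chromatin, ZNF326 had 133, 119 and 134 CPM in WT compressed cells, against 95.0, 68.8 and 70.3 CPM in WT control cells, with a log2 fold change of 0.77 ± 0.22 just outside the threshold (edgeR adjusted p 0.0535). ZNF330, a nucleolar protein, had 58.5, 58.5 and 76.0 CPM, against 44.7, 46.6 and 46.2 CPM in WT control cells, with 0.54 ± 0.17 (edgeR adjusted p 0.0611). The values of ZNF326 and of ZNF330 did not overlap between WT compressed and WT control cells. ZNF451, a SUMO ligase, had 0.63 ± 0.23, and ZNF639, an abundant member, had 0.72 ± 0.21 (edgeR adjusted p 0.0875 and 0.0553).

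On the other side, several regulators and ribosome factors were lower in WT compressed cells without passing. ZNF592 had 40.5, 49.0 and 32.6 CPM, against 54.5, 53.7 and 57.8 CPM in WT control cells, with -0.40 ± 0.17. Its partner in a transcriptional corepressor complex, ZNF687, had 41.7, 42.4 and 15.3 CPM, against 38.9, 70.8 and 50.5 CPM in WT control cells. Of this pair, ZNF592 did not overlap between the groups and ZNF687 did, with a low value in WT compressed replicate 3. ZNF622, a maturation factor of the large ribosomal subunit, had -0.38 ± 0.21, and ZNF503, a developmental repressor, had -0.72 ± 0.32. ZNF76, a close relative of the activator ZNF143, had -0.40 ± 0.18.

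Other well-studied members differed in spread. ZNF131, a BTB-type regulator, had 27.5, 28.6 and 27.2 CPM in WT compressed cells, against 34.0, 23.0 and 27.8 CPM in WT control cells. ZNF410, known as an activator of the chromatin remodeller gene CHD4, had 41.3, 34.8 and 35.5 CPM, against 31.7, 42.1 and 35.8 CPM in WT control cells. The compressed values of both lay inside the range of their controls. ZNF24, a SCAN-family factor, was at 36.4, 34.6 and 43.6 CPM in WT compressed cells and 26.6, 28 and 25 CPM in WT control cells, which did not overlap and did not pass (0.57 ± 0.43, edgeR adjusted p 0.364), while in KO compressed cells it spread over 9.03, 57.5 and 31.6 CPM, against 32.4 and 32 CPM in KO control cells. That spread, with the lowest value in KO compressed replicate 1, was shared by ZNF217, which binds the CoREST corepressor and had 18.3, 57.4 and 37.1 CPM in KO compressed cells, against 37.8 and 39.2 CPM in KO control cells. In WT cells ZNF217 had 44.5, 50.9 and 44.7 CPM with compression and 43.9, 35.2 and 33.4 CPM without, again separate and not past the threshold (0.36 ± 0.30, edgeR adjusted p 0.42).

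Compression of KO cells called none of the 149 members by edgeR, where 0% of all genes were called. At an unadjusted p under 0.05 there were 2 members higher and 3 lower, beside 6.11% of all genes, and DESeq2 also called 0. The lowest adjusted p of a member was 0.773. Values did not overlap for 9 members that were higher and 29 that were lower, beside 8.93% and 19.7% of all genes. The median over members was -0.02.

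ZNF697 had the smallest p in that comparison. It stood at 3.97, 2.36 and 5.62 CPM in KO compressed cells, against 10.7 and 9.28 CPM in KO control cells, a log2 fold change of -1.24 ± 0.32 (SE; edgeR adjusted p 0.773). The corresponding WT values were 7.06, 9.40 and 6.62 CPM with compression and 13.8, 12.8 and 16.9 CPM without, with -0.87 ± 0.29 (edgeR adjusted p 0.0703). Compressed libraries were therefore below control libraries in each genotype, and KO libraries below WT libraries in each treatment, with no difference past the threshold. ZNF34 had the opposite order, at 7.73, 12.0 and 9.22 CPM in KO compressed cells, 6.08 and 6.17 CPM in KO control cells, 5.21, 5.78 and 5.85 CPM in WT compressed cells and 3.30, 5.20 and 3.52 CPM in WT control cells. ZNF830, a protein of the spliceosome and the DNA damage response, had 8.96, 7.92 and 8.55 CPM in KO compressed cells, against 14.6 and 15.8 CPM in KO control cells, with -0.76 ± 0.21 (edgeR adjusted p 0.773).

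The comparisons of compression in KO and in WT cells share no library. The sign of the fold change was the same in both for 105 of 149 members (70.5%), 45 positive and 60 negative, and for 72.8% of all genes tested. Libraries were separate and lower in both genotypes for 16 members, among them ZNF598, ZNF500, ZNF74, ZNF517, ZNF592, ZNF697 and ZNF830, which is 10.7% of members beside 8.16% of all genes tested. They were separate and higher in both for 2, ZNF639 and ZNF34, which is 1.34% beside 3.88%. The direct test of a difference in response, the interaction (the KO change minus the WT change), called 0 members and 0% of all genes by edgeR and 0 members by DESeq2. At an unadjusted p under 0.05 there were 3 members higher and 2 lower, beside 4.79% of all genes. The smallest p-values belonged to ZNF215 (-0.88 ± 0.34), ZNF324 (0.97 ± 0.40) and ZNF558 (-0.71 ± 0.32), each with an edgeR adjusted p of 0.939.

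The loss of LMNA changed no ZNF gene past the threshold. Among uncompressed cells edgeR called 0 members, beside 0.339% of all genes, and DESeq2 also called 0. At an unadjusted p under 0.05 there were 2 members higher and 5 lower, beside 7.79% of all genes. Values were separate for 23 members higher and 29 lower in KO control cells, beside 17.8% and 13.9%. Among compressed cells edgeR called 0 members, beside 0.789% of all genes, and DESeq2 called 1. At an unadjusted p under 0.05 there were 7 higher and 6 lower, beside 11.3%, and values were separate for 8 higher and 10 lower, beside 7.14% and 9.45%. The median over members was -0.05 in both comparisons.

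The member with the smallest p between uncompressed cells was ZNF395, a factor induced by hypoxia in human cells. It had 61.9 and 60.0 CPM in KO control cells, against 27.9, 41.0 and 36.4 CPM in WT control cells, with a log2 fold change of 0.79 ± 0.22 (edgeR adjusted p 0.253). Among compressed cells it had 47.0, 69.9 and 61.3 CPM in KO and 45.9, 46.8 and 32.9 CPM in WT cells, with 0.53 ± 0.20 (edgeR adjusted p 0.297). KO libraries were above WT libraries in both treatments. ZNF259, also known as ZPR1 and a partner of growth factor receptors and a translation elongation factor, had 53.2 and 62.8 CPM in KO control cells, against 77.5, 82.2 and 93.1 CPM in WT control cells, with -0.55 ± 0.21 (edgeR adjusted p 0.535).

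Among compressed cells the smallest p belonged to ZNF407, with 11.6, 16.1 and 13.9 CPM in KO and 21.9, 21.1 and 23.0 CPM in WT cells and a log2 fold change of -0.64 ± 0.20 (edgeR adjusted p 0.187). ZNF324, a KRAB gene, had 6.28, 6.99 and 7.88 CPM in KO and 4.68, 4.23 and 3.07 CPM in WT cells, with 0.84 ± 0.27 (edgeR adjusted p 0.206). ZNF821 had 9.53, 7.50 and 6.66 CPM in KO and 2.76, 4.05 and 5.47 CPM in WT cells, with 0.97 ± 0.31 (edgeR adjusted p 0.212). The groups did not overlap for any of these 3 genes.

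Members with and without an annotated KRAB box had different medians, a difference described here without a test. After compression of WT cells the 46 KRAB members had a median log2 fold change of 0.04 with 26 positive, and the 103 others had -0.20 with 41 positive. The 5 genes that fell were all in the second set and ZNF558 was in the first. In KO cells the medians were 0.09 for KRAB members, 28 of 46 positive, and -0.09 for the others, 39 of 103 positive. The median of the KRAB set minus that of the others was positive in each fit that left out 1 library, at 0.11 to 0.43 in WT cells and 0.12 to 0.29 in KO cells. The KRAB median in WT cells itself was -0.04 without WT compressed replicate 3, 0.19 without WT control replicate 1 and -0.01 with scaling by library size alone, so its sign is not fixed. In KO cells the KRAB median was 0.0065 without KO compressed replicate 2 and 0.19 without KO compressed replicate 1, and that of the others ran between -0.16 and -0.058. Human ZNF74, ZNF500 and ZNF517 are known as KRAB proteins, and the descriptions of these dog genes list no KRAB box, so the split follows the deposited annotation.

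**Figure D3:**
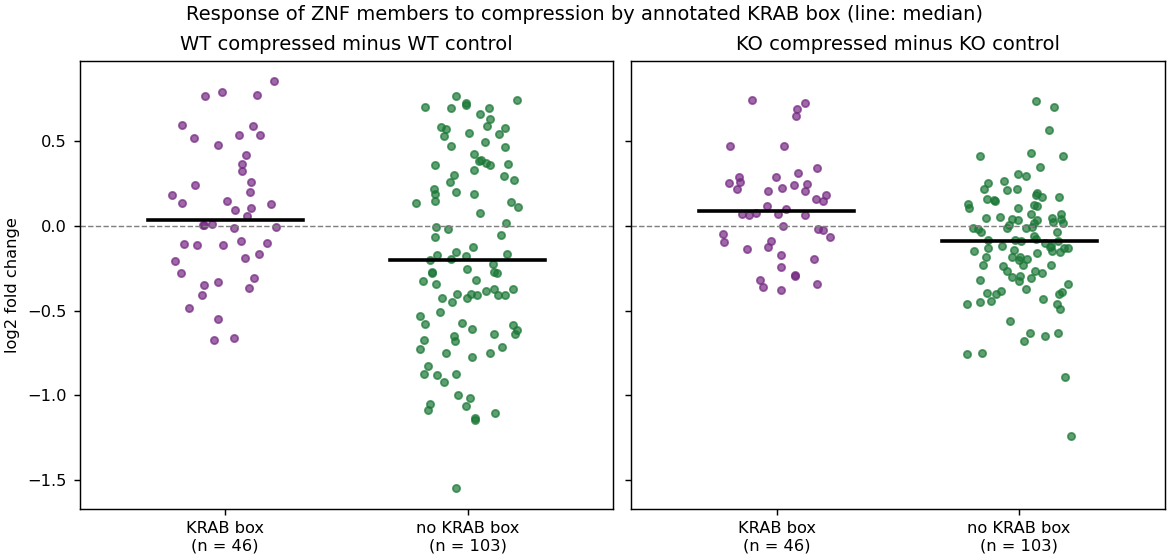
Log2 fold change of each ZNF gene after compression in WT cells (left) and KO cells (right), for 46 members with and 103 without an annotated KRAB box, with the median as a line. The KRAB medians of 0.04 and 0.09 lie above those of the others, -0.20 and -0.09, and both sets spread widely around 0.

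ZNF genes sit in gene-rich surroundings, with a median of 22 protein-coding genes within 0.5 Mb against 13 for all genes tested. Over all genes tested, the log2 fold change after compression was lower at higher gene density, with Spearman's rho of -0.40 across genes in WT cells and -0.30 in KO cells. Over the 149 members rho was -0.37 in WT cells and -0.24 in KO cells. These genes share libraries and neighbourhoods, so the values are descriptions. The value in KO cells turned to 0.12 without KO compressed replicate 2, one of the libraries that stood apart.

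Where more than 24 genes lay within 0.5 Mb, KRAB members had a median near 0 in WT cells and above 0 in KO cells. There the median in WT cells was 0.01 for 23 KRAB members, 14 positive, against -0.42 for 3388 genes of all kinds, of which 19% were positive. The 44 members in such regions without an annotated KRAB box had -0.59 with 9 positive. They held all 5 genes that fell, among them ZNF74, ZNF500 and ZNF517, which are known as KRAB proteins in human. In KO cells the medians were 0.16 for these KRAB members, -0.23 for the others and -0.18 for all genes there. Leaving out single libraries gave -0.05 to 0.19 for the KRAB members in WT cells and -0.71 to -0.42 for the others. In KO cells it gave 0.054 to 0.23 for the KRAB members, the lowest without KO control replicate 1, and -0.37 to -0.13 for the others, the nearest to 0 without KO compressed replicate 2. The order was reversed in the sparsest regions. At up to 7 genes, 3 KRAB members had medians of -0.33 in WT and -0.17 in KO cells, against 0.16 and 0.03 for 20 others. Above 7 and up to 13 genes, 6 KRAB members had 0.09 and -0.02, against 0.25 and 0.04 for 16 others. Above 13 and up to 24 genes, 14 KRAB members had 0.12 and 0.21, against -0.27 and -0.005 for 23 others. With each library's trend over gene density removed, an alternative added after the data were seen, the edgeR fit called 3 members in WT cells, all higher. This is 2.01% of members, near the 1.84% of all genes called higher. Another 1.52% of all genes were called lower, together 3.36%. The 3 members were ZNF558, ZNF175 and ZNF789, each with a KRAB box, with edgeR adjusted p-values of 0.0454, 0.044 and 0.0458.

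**Figure D4:**
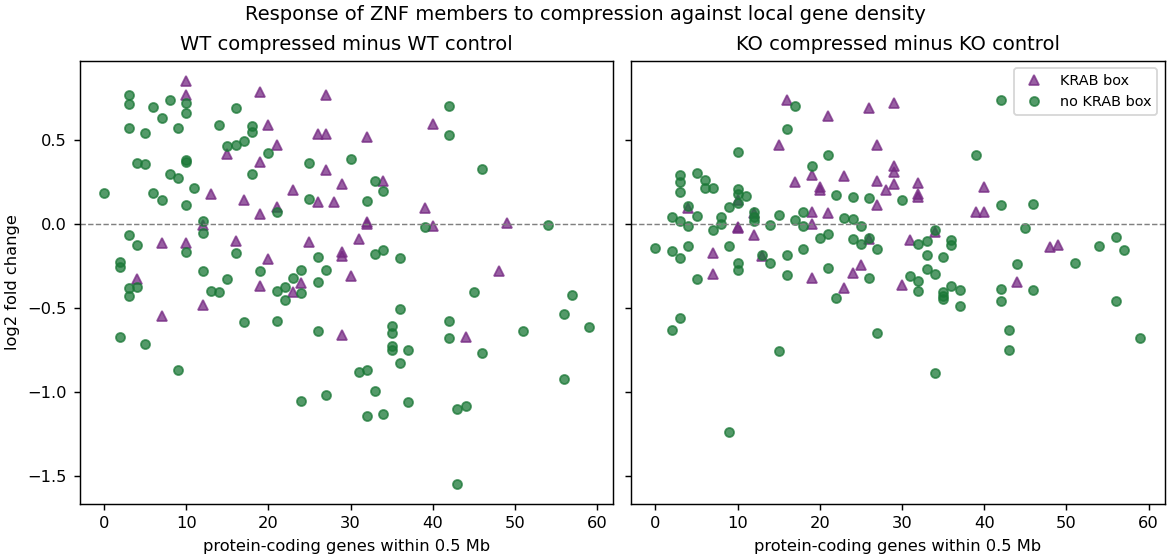
Log2 fold change of each ZNF gene after compression in WT cells (left) and KO cells (right) against the number of protein-coding genes within 0.5 Mb. Members without an annotated KRAB box (circles) in dense regions lie mostly below 0, with a median of -0.59 above 24 genes in WT cells, while KRAB members (triangles) there scatter around 0.

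Of the 149 members, 59 lay in 12 clusters, defined as 3 or more members with starts no more than 1 Mb apart, and 26 of these had a KRAB box. In WT cells the median was -0.18 inside clusters, with 22 of 59 positive, and -0.001 outside, with 45 of 90 positive. Neighbours in a cluster are not independent, and paralogs among them may share reads, which the deposited counting could split between them.

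In some clusters the fold changes of all members had the same sign, although no member of these passed the test. On chromosome 6 from 17149403 to 17708233 lie ZNF646, ZNF668, ZNF629, ZNF768, ZNF771 and ZNF48, none with a KRAB box. All 6 had negative fold changes in WT cells, between -0.68 and -0.42, and in KO cells, with medians of -0.60 in WT and -0.31 in KO cells. With the density trend removed the WT median was -0.07. Without the 2 libraries that stood apart, 6 of 6 were negative in WT cells, with a median of -0.44, and 4 of 6 in KO cells, with -0.14. ZNF768, a factor bound to repeat-derived sites in human cells, had 24.2, 37.7 and 14.7 CPM in WT compressed cells, against 28.9, 49.7 and 41.8 CPM in WT control cells, which overlapped.

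The opposite held for the cluster on chromosome 1 from 115869905 to 116460255, which holds ZNF829, ZNF566, ZNF529 and ZNF146. All 4 were positive in both genotypes, with medians of 0.52 in WT cells and 0.67 in KO cells, and 0.67 and 0.74 with the density trend removed. Without the 2 libraries that stood apart, 4 of 4 were positive in WT cells, with a median of 0.43, and 3 of 4 in KO cells, with 0.40. ZNF146 had 115, 107 and 144 CPM in WT compressed cells, against 88.9, 66.5 and 78.3 CPM in WT control cells, a log2 fold change of 0.70 ± 0.24 (edgeR adjusted p 0.0773). The libraries of WT compressed and WT control cells did not overlap for ZNF146, and they did for the other 3 genes. The cluster of ZNF879, ZNF354B and ZNF354A, on chromosome 11 from 2540185 to 2919685, was positive in all 3 genes in both genotypes, with medians of 0.42 in WT and 0.47 in KO cells, but without the same 2 libraries the WT median was 0.11, with 2 of 3 positive, and the KO median 0.40.

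A further cluster on chromosome 1, from 101548238 to 102228796, held both signs. Its KRAB members ZNF582 and ZNF667 had fold changes at or above 0 in WT cells. ZNF444, ZNF787, ZNF580, ZNF865 and ZNF628, without an annotated box, were all negative, giving a median of -1.06 over the 7. With library size alone 1 of the 7 was positive and 6 were negative, and so it was without the 2 libraries that stood apart. The contrast in sign within this cluster is therefore not fixed. Signs did not follow the annotated KRAB box everywhere. On chromosome 13 ZNF34, with no annotated box, was positive in WT cells. In the same cluster ZNF7, with an annotated box, was at -0.28, or 0.25 with the density trend removed. The descriptions can miss a box, so ZNF34 is an exception by annotation only. ZNF865 had 8.82, 16.1 and 3.26 CPM in WT compressed cells, against 23.7, 31.4 and 29.4 CPM in WT control cells, the largest decrease of any member at -1.55 ± 0.57, which did not pass (edgeR adjusted p 0.0902). ZNF444, a SCAN gene that activates a scavenger receptor gene in endothelium, had 8.44, 9.31 and 3.93 CPM, against 13.5, 20.5 and 12.6 CPM in WT control cells, with -1.06 ± 0.31 (edgeR adjusted p 0.055). In these genes WT compressed replicate 3 was the lowest of the WT libraries, and without it and KO compressed replicate 2 the cluster's median in WT cells was -0.67. On chromosome 16, from 13746300 to 14712580, 7 of 8 members were negative in WT and in KO cells, with medians of -0.39 and -0.29. With the density trend removed 5 of 8 were negative in WT cells, with a median of -0.25, and 7 of 8 in KO cells, with -0.24. Without the 2 libraries that stood apart, 7 of 8 were negative in WT cells, with -0.33, and 6 of 8 in KO cells, with -0.31.

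**Figure D5:**
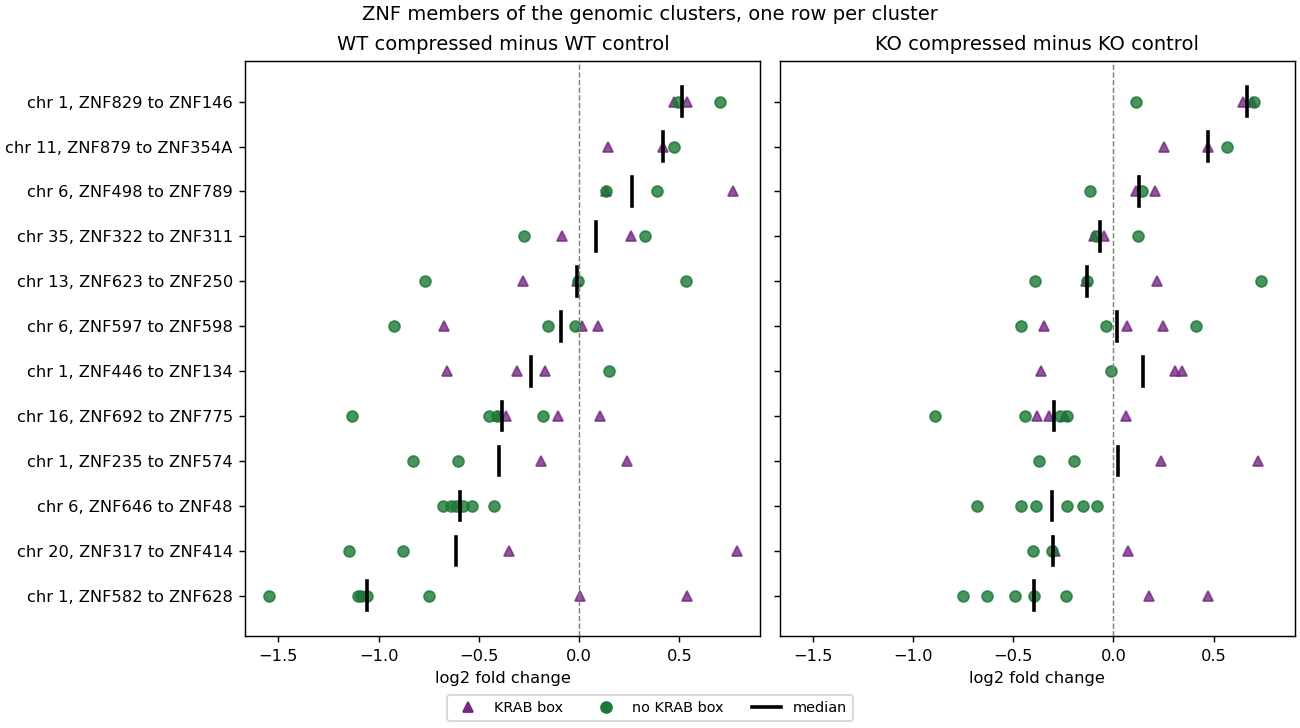
Log2 fold change after compression in WT cells (left) and KO cells (right) for the ZNF genes of 12 genomic clusters, one row per cluster, with triangles for KRAB members, circles for the others and a line at the median. The chromosome 1 cluster of ZNF829 to ZNF146 lies above 0 in both genotypes and the chromosome 6 cluster of ZNF646 to ZNF48 below 0, each with exceptions in KO cells without the 2 libraries that stood apart.

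The partners through which KRAB proteins act were measured beside them. Of 52 genes listed for the KRAB corepressor machinery and its chromatin partners, 45 were tested. In WT cells 2 rose and 1 fell, 6.67% of the list beside 6.25% of all genes, 27 of 45 were positive, and in the other 4 comparisons edgeR called 0 of them. FAM208A, a subunit of the HUSH silencing complex, had 167, 155 and 186 CPM in WT compressed cells, against 114, 83.6 and 97.3 CPM in WT control cells, with 0.83 ± 0.21 (edgeR adjusted p 0.0448). HELLS, a remodeller needed for DNA methylation, rose by 0.75 ± 0.19 on the log2 scale (edgeR adjusted p 0.0448). MBD3, a subunit of the NuRD deacetylase complex, had 78.5, 91.8 and 50.7 CPM in WT compressed cells, against 156, 198 and 172 CPM in WT control cells, with -1.21 ± 0.28 (edgeR adjusted p 0.0414). TRIM28 had 336, 376 and 286 CPM, against 440, 484 and 449 CPM in WT control cells, and this difference of -0.42 ± 0.17 did not pass (edgeR adjusted p 0.113). SETDB1 was at 50.5, 55.7 and 46.1 CPM, against 51.3, 52.0 and 53.9 CPM in WT control cells, overlapping ranges.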

How the data were processed

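The data were RNA-seq of 11 MDCKII libraries, grouped by their sample titles. Per the labels' protocols, polyadenylated RNA was captured on oligo(dT) beads and copied from random hexamers. HISAT2 2.0.5, CASAVA and FastQC are the tools named, and CanFam3.1 the build, per the submitters' processing notes. The gene counter and any use of strand were not given in sources used here, so reads of overlapping genes and of near-identical ZNF paralogs may be split. Whole-number counts were deposited for each gene by the authors, and they were taken to be raw, with no normalization. The authors also deposited FPKM values, which divide the counts by gene length and by a library size. FPKM were used for levels across genes and as an alternative.

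The counts went into edgeR 4.0.16 under R 4.3.3: genes kept by filterByExpr (13560), TMM scaling, 1 quasi-likelihood fit of the 4 groups over all libraries with 7 residual degrees of freedom, two-sided tests, Benjamini-Hochberg adjustment over all genes tested and a threshold of 0.05. Printed CPM are counts over the library total, while fold changes are log2 and TMM-scaled, given with their SE. The code was also run on counts simulated from the fitted spread. These held no library that stands apart, so that run does not bear on how stable the calls are. The 5 comparisons were compression in each genotype, KO against WT in each treatment, and the interaction. Replicates of a group all differed by more than counting noise, with at least 5.86 as the chi-square per gene. Libraries of over 10420214 counts leave the lowest member with 17 reads, and intervals on such counts would cover counting error only. Domains (KRAB, SCAN, BTB) were read from the gene descriptions in the deposited table. Local density is the number of other protein-coding genes whose midpoint lies within 0.5 Mb of the gene's midpoint.

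The members, the lists and the tests were chosen with earlier results of these data known. The naming rule takes the 6 members highest in CPM and in FPKM, up to 8 called members each way per comparison, or the 3 of smallest p where fewer than 3 were called, those at the 5 CPM threshold, for each cluster its leading members, and members on the list of known roles. Not every gene it takes is named. Other genes were named after their values were seen: members separate in both genotypes, neighbours in a cluster, and those called with density removed. The results were recomputed with no filter, with RLE scaling, with DESeq2 1.42.0, with library size alone, and with 1 CPM in 3 libraries. Further alternatives were a robust fit, limma 3.58.1 on log2(FPKM + 1) and log2(FPKM + 0.1) for genes with at least 1 FPKM in 2 libraries, only the 2 groups compared, a replicate block, gene length correction, a cluster gap of 0.25 Mb and leaving out each library. Added after the data were seen were a loess correction for gene density and a fit without the 2 libraries that stand apart.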

Additional observations from a re-analysis of the deposited data

How the results depend on the processing

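The count of 6 members called between WT compressed and WT control cells was the result that moved most. It was 13 without a filter (5 higher, 8 lower; 9.62% of all genes called), 25 with DESeq2 (10 higher, 15 lower; 18.9%) and 18 with only the 2 groups compared (9 higher, 9 lower; 16.3%). It was 0 with limma on log2(FPKM + 1) and 0 on log2(FPKM + 0.1), beside 0% and 0.00755% of all genes. In these limma fits 42 and 41 members had an unadjusted p under 0.05. With the gene density correction the count was 3, all higher (3.36% of all genes called). Leaving out 1 library gave 0 to 32, beside 0% to 22.7% of all genes. In the fits that left out a library and called 0, edgeR still gave 21 to 41 members at an unadjusted p under 0.05. The count was 4, all lower, with library size alone (4.52% of all genes called), against 1 higher and 5 lower with TMM. It was 6 with RLE scaling, the stricter filter and the robust fit (6.25% to 7.2%). It was 8 with the gene length correction (8.78%) and without the 2 libraries that stand apart (7.01%).

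The median log2 fold change of members between WT compressed and WT control cells was 0.048 with the density correction and -0.13 to -0.025 with 1 library left out, against -0.10. Between KO compressed and KO control cells it was -0.10 with library size alone, against -0.02. Between KO compressed and WT compressed cells DESeq2 called 1 member, lower, and leaving out 1 library gave 0 to 1, the 1 being without KO compressed replicate 2. The ratio of summed levels in WT cells was 1.03 in FPKM, against 0.951. ZNF558 between KO compressed and KO control cells, at 0.07, turned to -0.0046 with library size alone and -0.031 without the 2 libraries that stand apart, and ran between -0.046 and 0.27 with 1 library left out. ZNF7 in WT cells, at -0.28, turned to 0.25 with the density correction. No other fold change printed for a single gene changed sign in the alternatives run. Over all printed genes and alternatives, 1455 values kept their side of the threshold, 105 lost the call, 40 gained one and 5 turned, the last all for ZNF558 and ZNF7. The causes were not tested.

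With the replicate block the members called in WT cells were 0, beside 0% of all genes (33 members at an unadjusted p under 0.05 in edgeR). The numbers do not pair the samples: over 15 pairs of same-numbered libraries the deviations correlated at -0.332 to 0.182, and 1 pair was over 0.1. A correction for GC content was not run, since no genome was used here. Members at a few CPM rest on few reads, down to 17 in a library, which limits the precision of their fold changes.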

Other observations

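Related DNA-binding families at 5 CPM or more were read from the same fit. In WT cells after compression, 0 of 24 ZBTB genes, which pair a BTB domain with zinc fingers, were called by edgeR, with 8 (33.3%) at an unadjusted p under 0.05, a median log2 fold change of -0.14 and 9 positive. Of 10 ZFP genes 0 were called, with 2 (20%) at an unadjusted p under 0.05, a median of 0.04 and 6 positive. Of all genes tested 6.25% were called and 31.8% had an unadjusted p under 0.05, so these shares are near or below the background. Of 8 KLF genes 1 was called, as lower, and it is named after its values were seen. KLF15, a glucocorticoid-induced factor known from kidney and liver metabolism, had 7.98, 11.3 and 9.88 CPM in WT compressed cells, against 41.4, 18.2 and 31.6 CPM in WT control cells, a log2 fold change of -1.60 ± 0.45 (edgeR adjusted p 0.0498). The compressed libraries all lay below the controls. In KO cells the values were 23.3, 6.74 and 6.66 CPM with compression and 14.6 and 18.4 CPM without, which overlapped.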
